A study of Pseudotsuga menziesii with 72 samples.

Results

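In needles of Douglas-fir (Pseudotsuga menziesii), 129 of 180879 counted transcripts had a single sharp maximum at 14:00, and their levels are described here. They were chosen by their level in CPM, the count of a transcript scaled to a common library total, averaged over the libraries of each of 6 clock times. A mean of 5 to under 1000 CPM and a mean of at least 1 CPM in every tree left 16040 transcripts. In 1236 of them the mean at 14:00 was the highest of the 6, over both days together and on each day. The mean at 14:00 was also over 1.5 times the means at 10:00 and at 18:00 in 129, none of which had another clock time at 1.5 times both of its neighbours or more. The rule allowed for 150, so every transcript that met it is included. Because the levels by clock time chose these transcripts, those levels are given as a description without a test.

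The libraries came from 6 untreated trees, 3 years old, which form 3 half-sib families of 2: 1A with 1B, 2A with 2B, and 3A with 3B. All came from one seed source in the Siskiyou region of Oregon and grew in Corvallis. Each sample held 8 to 12 needles of the 2012 cohort, taken in September every 4 h over 48 h, so that each tree gave 12 samples and each of 2 days was sampled at 2:00, 6:00, 10:00, 14:00, 18:00 and 22:00. Needles are mixed tissue, so more RNA per cell and more cells of a kind cannot be told apart.

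In plants the circadian clock, a loop of transcription factors that repress and activate one another, sets the time of day at which many genes are transcribed. Light, temperature and water status act on transcription directly as well. A transcript level can rise and fall within hours only where its RNA is both made and degraded quickly. The files pair no transcript with a gene name or a sequence, so no role is given for any transcript here, and no sequence is shown.

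The 72 libraries held between 10.3 and 55.9 M counts each, with a median of 22.75 M, and the 12 libraries of 14:00 held 16.3 to 41.2 M. Titles give hours counted from the first collection, which is taken as 2:00, so the 14:00 libraries are those titled hours 12 and 36. For 62 of the 72 libraries a separate time label differs from the title's hour after this shift of 2 h. Clock times rest on the titles. Of the 72 libraries, 70 were nearest their own tree after removal of the collection means. The exceptions were the 6:00 libraries of trees 1B and 2A on day 1, which lay nearest tree 2A (correlation 0.786, with its own tree -0.268) and nearest tree 1B (0.726, with its own tree -0.300). The rule left both out. In them the 129 transcripts together stood at 2301 and 2108 CPM, within the 1913 to 2882 CPM of the other 10 libraries of 6:00, and the same 129 transcripts were chosen with all 72 libraries.

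Together the 129 transcripts made up a median of 0.239% of the counts at 2:00 on day 1, 1.00% at 14:00 that day and 1.21% at 14:00 on day 2. Their summed level at 14:00 on day 1 was 8589 CPM in the lowest tree, 10048 CPM in the median and 11728 CPM in the highest. At 10:00 that day it was 2435, 2987 and 3145 CPM, and at 18:00 it was 3974, 4664 and 5803 CPM, so no tree's 14:00 library overlapped either neighbour. On day 2 the summed level was 2684, 3517 and 4103 CPM at 10:00, 8868, 12065 and 14801 CPM at 14:00, and 5620, 6395 and 6888 CPM at 18:00. The lowest level was reached at 6:00, at 1913, 2113 and 2341 CPM on day 1. By 22:00 the sum had returned to medians of 3202 and 3079 CPM on the 2 days, about the level of 10:00. A few transcripts hold much of this sum, since psme_t035760 alone stood at 1888 CPM at 14:00.

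**Figure D1:**
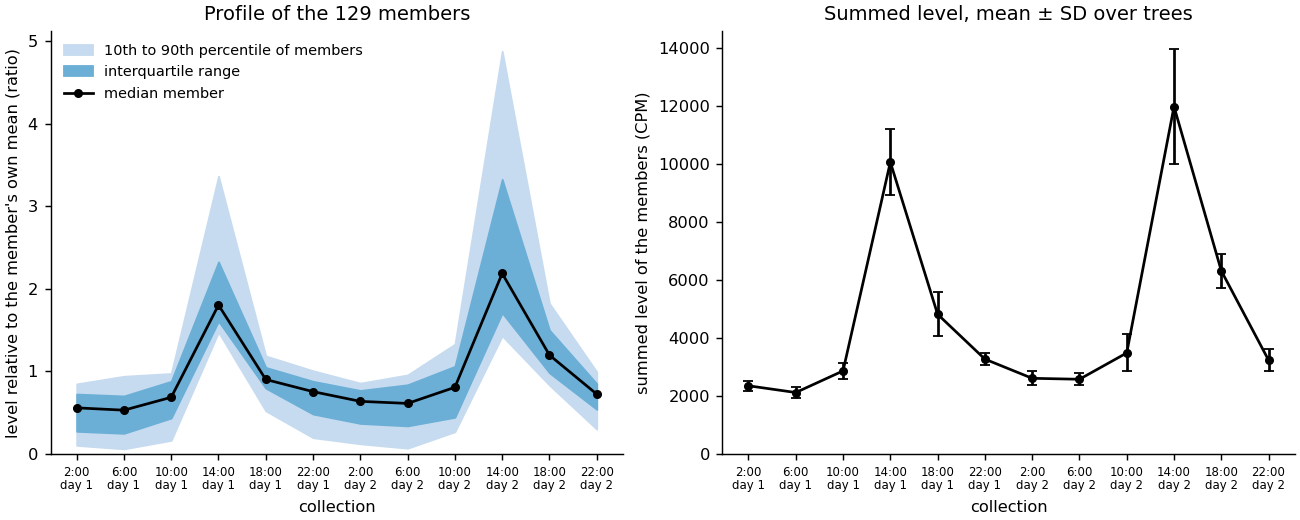
The left panel plots each transcript's mean level at each of the 12 collections divided by its own mean over all collections (ratio), as the median over the 129 transcripts with the interquartile range and the range from the 10th to the 90th percentile. The right panel plots their summed level in CPM as the mean and SD over the trees (6 per collection, 4 at 6:00 on day 1), which is highest at 14:00 on both days and lower at 10:00 than at 18:00.

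The size of the daily change differed widely among the 129. The mean at 14:00 made up 22.9% to 78.6% of the sum of the 6 clock-time means (median 33.7%), where 6 equal levels would give each the same share. It was 1.64 to 229.7 times the mean at the lowest clock time, with a median of 3.78. The ratio reached 2 in 114 transcripts, 4 in 58, 10 in 27, 20 in 19 and 50 in 15. The lowest clock time was 6:00 in 63 transcripts, 2:00 in 40, 10:00 in 12, 22:00 in 10 and 18:00 in 4 (psme_t027226, psme_t017673, psme_t011856 and psme_t050029, named after their values were seen). Most of the group therefore had its trough in the hours before dawn. Counts were ample at the maximum, since the lowest 14:00 library of any of the 129 held 24 counts.

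The 6 transcripts with the largest share at 14:00 were close to silent for most of the day. For psme_t020574, with 78.6% of its level at 14:00, the 6 libraries of 10:00 on day 1 held 0.0900 to 0.680 CPM (median 0.472). At 14:00 they held 9.46 CPM in tree 2A, 22.1 CPM in the median and 54.1 CPM in tree 1A, and at 18:00 they held 2.63 to 4.96 CPM (median 3.17). On day 2 its 14:00 libraries held 18.2 to 69.6 CPM (median 39.6) and its 18:00 libraries 6.25 to 13.5 CPM (median 10.7). Every 14:00 library of a day lay above every library of 10:00 on that day, and tree 1A was highest at 14:00 on both days.

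The second, psme_t055151 (77.1% at 14:00), stood at 0.732 to 2.33 CPM at 10:00 on day 1 (median 1.33) and at 26.0 to 120.8 CPM at 14:00 (median 45.6). At 14:00 on day 2 it reached 39.7 to 153.7 CPM (median 80.8). For psme_t041541 (76.8%) the libraries of 14:00 on day 1 held 23.2 to 116.9 CPM (median 35.5), and those of day 2 held 31.0 to 136.6 CPM (median 63.9). The spread between trees at the peak was thus several-fold in both. In psme_t038959 (76.6%) the mean rose from 1.64 CPM at 10:00 to 92.0 CPM at 14:00 and stood at 19.99 CPM at 18:00. The remaining pair, psme_t045234 and psme_t044461, had means of 62.4 and 66.5 CPM at 14:00 and of 0.637 and 0.598 CPM at 6:00. In each of these 6 transcripts 14:00 was the highest clock time in 6 of 6 trees.

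**Figure D2:**
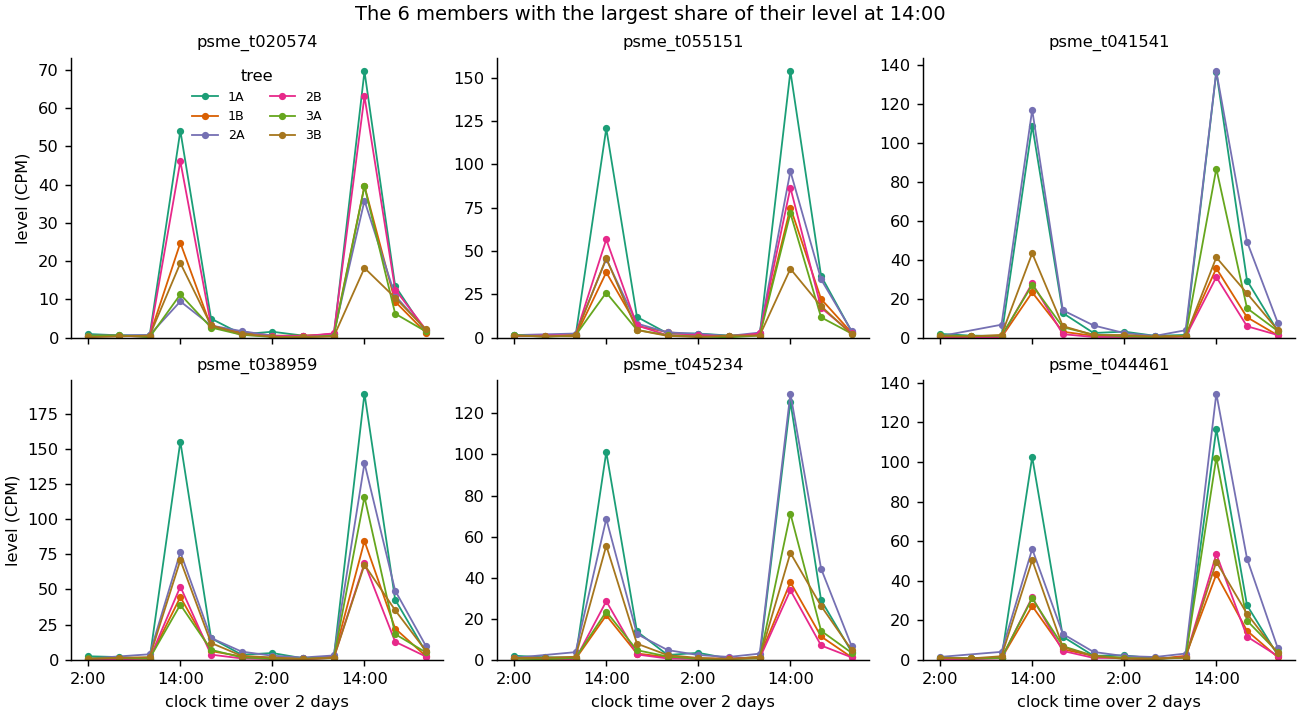
Level in CPM at each collection for the 6 transcripts with the largest share of their level at 14:00, with 1 line per tree and the clock time over 2 days on the x axis; the 6:00 libraries of trees 1B and 2A on day 1 are left out. Each line is near 0 until 10:00, is highest at 14:00 and is still raised at 18:00, and the height at 14:00 differs several-fold between trees.

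Among the 6 transcripts with the highest levels at 14:00, the maximum was 3.29 to 229.7 times the lowest clock-time mean, where the median over the 129 was 3.78. Levels in CPM are not divided by transcript length, so they are compared within a transcript only. The most counted, psme_t035760, stood at 638 to 933 CPM at 10:00 on day 1 (median 777), at 1558 to 2397 CPM at 14:00 (median 1988) and at 709 to 2046 CPM at 18:00 (median 1161). Its 14:00 and 18:00 libraries overlapped. Its maximum was 3.29 times its lowest clock-time mean, and similar ratios, 3.73 and 3.99, were found in psme_t029531, at 679.5 CPM at 14:00 and 182.0 CPM at 6:00, and in psme_t003521, at 296 CPM and 74.3 CPM.

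By contrast, psme_t044566 had the widest daily range of the 129. It stood at 5.30 to 26.3 CPM at 10:00 on day 1 (median 9.34), at 321 to 811 CPM at 14:00 (median 485) and at 60.8 to 198.2 CPM at 18:00 (median 96.6). Its mean at 14:00 was 229.7 times that at 6:00. In psme_t029522 the mean was 24.7 CPM at 10:00, 488 CPM at 14:00 and 101.7 CPM at 18:00, with the highest 14:00 libraries in tree 1A (700 and 1006 CPM) and the lowest in tree 3B (138.4 and 150.9 CPM). The level of psme_t010217 rose from 57.3 CPM at 10:00 to 734 CPM at 14:00 and was still 479 CPM at 18:00; 14:00 was its highest clock time in 5 of 6 trees.

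At the other end, the 3 transcripts with the smallest share at 14:00 had maxima of 1.71 to 1.96 times their lowest clock-time mean. The smallest, psme_t033797 (22.9%), stood at 90.4 to 104.8 CPM at 10:00 on day 1 (median 95.9), at 121.3 to 176.4 CPM at 14:00 (median 145.6) and at 77.6 to 103.8 CPM at 18:00 (median 96.4). Its 14:00 libraries lay above both neighbours on that day, and the maximum was 1.71 times the mean at 10:00, its lowest clock time. In psme_t050029 (23.0%) the 14:00 libraries held 2.17 to 21.4 CPM on day 1 and 0.850 to 13.6 CPM on day 2, which overlapped every other clock time, and 14:00 was highest in 4 of 6 trees. For psme_t011856 (23.3%) the means were 13.1 CPM at 14:00, 11.2 CPM at 6:00, its second-highest clock time, and 6.68 CPM at 18:00, its lowest.

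Just inside the limit of 1.5 were psme_t050067, at 16.3 CPM at 14:00 and 10.9 CPM at 18:00 (1.50 times, above the limit by less than the rounding), psme_t037022 (1.50 times its 18:00 mean) and psme_t004069 (1.51 times its 10:00 mean). Just outside were psme_t020371, psme_t025855 and psme_t005412, each at 1.50 times its 18:00 mean after rounding, with 14:00 means of 10.8, 24.6 and 16.4 CPM.

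The levels before and after the peak were unequal in most of the group. Collections 4 h apart do not place the maximum between them, so rates of rise and fall were not compared. The mean at 18:00 was above that at 10:00 in 103 transcripts and below it in 26. As a percentage of the 14:00 mean, the 10:00 mean had a median of 43.8% (quartiles 20.8% and 54.9%) and the 18:00 mean a median of 56.5% (quartiles 42.7% and 62.4%). The second-highest clock time was 18:00 in 89 transcripts, 10:00 in 22, 22:00 in 10, 6:00 in 7 and 2:00 in 1 (psme_t050029). In 43 transcripts the 10:00 mean was less than 0.5 times the 18:00 mean, and in 2 it was over 2 times.

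The strongest tilt toward the evening was in psme_t113393, where the 10:00 mean was 0.0559 times the 18:00 mean. It held 0.279 to 1.44 CPM at 10:00 on day 1 (median 0.496), 13.7 to 48.2 CPM at 14:00 (median 24.02) and 5.83 to 13.4 CPM at 18:00 (median 10.4). For psme_t044566 the ratio was 0.0626. The opposite tilt was in psme_t027226, at 3.05, which held 4.83 to 10.2 CPM at 10:00 on day 1, 9.91 to 14.7 CPM at 14:00 and 1.29 to 2.98 CPM at 18:00. Its level after the peak was below its level before it in all trees on that day. In psme_t044649, at 2.23, the means were 48.4 CPM at 10:00, 89.9 CPM at 14:00 and 21.8 CPM at 18:00.

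**Figure D3:**
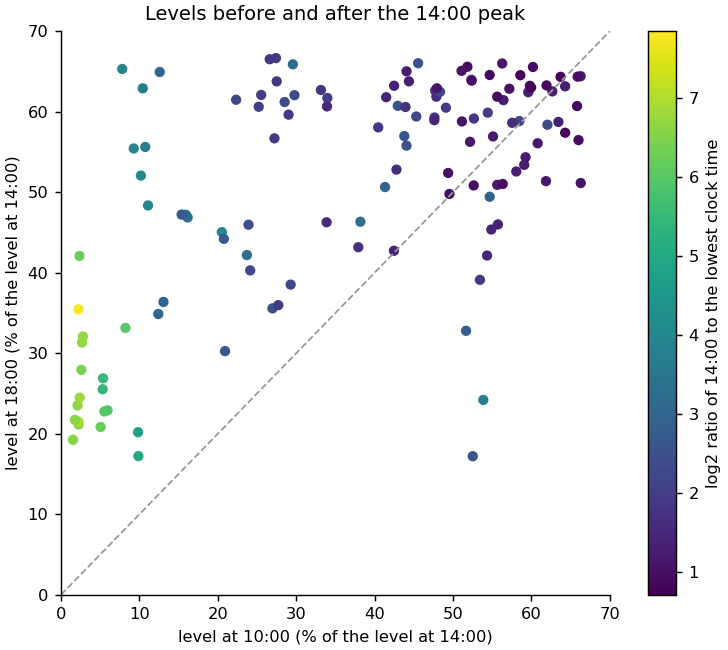
Mean level at 10:00 (x axis) and at 18:00 (y axis), each as a percentage of the transcript's mean at 14:00, for the 129 transcripts; colour is the log2 ratio of the 14:00 mean to the lowest clock-time mean, and the dashed line marks equal levels at 10:00 and 18:00. Points above the line (103) were higher at 18:00, and the transcripts with the highest log2 ratios lie at under 10% at 10:00.

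Single libraries overlapped more than the means. In 44 of the 129 transcripts all 12 libraries of 14:00 lay above all 12 libraries of 10:00, against 1.18% of the 16040 transcripts within the level limits, and in 8 they lay above all libraries of 18:00, against 0.224%. Only psme_t020241, psme_t014295 and psme_t009336 (named after their values were seen) had every 14:00 library above every other library, against 0.0187%. These shares follow from the rule and show nothing further about the group. In psme_t020241 the lowest 14:00 library held 25.5 CPM and the highest library of any other clock time 24.03 CPM, at 18:00. Within trees, 14:00 was the highest of the 6 clock times in 6 of 6 trees for 108 transcripts, in 5 trees for 18, in 4 for psme_t050029 and in 3 for psme_t042119 and psme_t008954.

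To see whether the peak appeared in trees that had no part in the choice, the rule was applied to 5 trees at a time and the transcripts it chose were examined in the sixth. The 5 trees chose 125 to 150 transcripts, of which 112 to 121 were among the 129. In the tree left out, 14:00 was the highest clock time for 118 of 125 in tree 1A (94.4%), 119 of 127 in tree 1B (93.7%), 124 of 129 in tree 2A (96.1%), 131 of 146 in tree 2B (89.7%), 126 of 129 in tree 3A (97.7%) and 119 of 150 in tree 3B (79.3%). Over all transcripts within the level limits the share was 6.24% to 24.4%. The median log2 difference between 14:00 and 10:00 in the tree left out was 0.96 to 1.62, and between 14:00 and 18:00 it was 0.80 to 0.97, whereas the medians over all transcripts tested lay between -0.04 and 0.04.

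Within 1 tree each clock time has 2 libraries. In these fits 0 to 26 of the chosen transcripts passed in both contrasts at an adjusted p under 0.05 (edgeR's quasi-likelihood test with Benjamini-Hochberg adjustment). In tree 1A 26 of 125 passed both, against 0.0747% of all transcripts tested. In tree 2A 14 of 129 passed (0.0429% of all), in tree 2B 15 of 144 tested (0.0485% of all) and in tree 3A 7 of 129 (0.0346% of all). In tree 3B 2 of 150 passed (0.00678% of all), and in tree 1B none of 127 did (0% of all), where 81 had unadjusted p under 0.05 in both contrasts in edgeR. No other tool was run on single trees, and without the filter on low counts 35 to 74 passed per tree. For these counts, and for the 81 in tree 1B, no share over all transcripts is given here. They therefore do not show whether the chosen transcripts differ from the rest.

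The same was done for the days. Day 2 alone chose 137 transcripts (96 of them among the 129), and on day 1 14:00 was the highest clock time for 118 of these (86.1%), against 15.5% of all transcripts within the level limits. On day 1 90 of the 137 passed both contrasts, against 1.24% of all. Day 1 alone chose 150 transcripts (92 among the 129), and on day 2 14:00 was highest for 139 (92.7%), against 15.0% of all. On day 2 97 of the 150 passed both contrasts, against 1.76% of all. Without tree as a replicate block 37 of the 150 passed on day 2 and 62 of the 137 on day 1. No share over all transcripts is given here for the counts without the block. The 14:00 maximum of most transcripts in these newly chosen sets was thus also found in libraries that did not choose them. Those libraries were not independent, however. A tree left out was sampled at the same collections as the trees that chose, and both days came from the same trees. Whether something shared by a collection or by the trees contributed was not tested.

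At 14:00 most of the 129 did not differ between the days beyond the test's threshold. The difference of hour 36 minus hour 12, counted from the first collection, passed in 41 of the 129 transcripts (31.8%), against 13.1% of 52820 tested. It was higher on day 2 in 29, against 6.31% of all, and lower in 12, against 6.75% of all. The log2 difference was above 0 in 83 of the 129, with a median of 0.23 (quartiles -0.15 and 0.53), and over all transcripts it was -0.06. Without tree as a replicate block 11 passed, against 2.26% of all. Each day has a single 14:00 collection, so these tests measure the spread between trees and not that between days. Only psme_t014295 and psme_t147405 (the second named after its values were seen) had every 14:00 library of day 2 above every one of day 1, against 1.68% of the transcripts within the level limits.

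The largest rise at 14:00 was in psme_t042119. Its mean at 22:00 was also higher on day 2, at 68.1 CPM against 11.8 CPM on day 1. Tree 2A, at 245.9 CPM, held much of that day 2 mean. The medians at 22:00 were 29.9 CPM on day 2 and 7.33 CPM on day 1. Its 14:00 libraries held 9.16 to 37.5 CPM on day 1 (median 14.9) and 14.5 to 242.3 CPM on day 2 (median 64.2), with the highest library in tree 2A. The groups overlapped, and the log2 difference was 1.91 ± 0.47 (SE, adjusted p = 0.00308 in edgeR). For psme_t093515 the 14:00 libraries held 3.77 to 46.7 CPM on day 1 (median 25.2) and 6.49 to 143.1 CPM on day 2 (median 64.1), a log2 difference of 1.12 ± 0.20 (SE, adjusted p = 6.66e-05 in edgeR).

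The largest falls were in psme_t036453 and psme_t020377. The first held 40.1 to 94.8 CPM at 14:00 on day 1 (median 65.2) and 13.7 to 69.4 CPM on day 2 (median 31.0), a log2 difference of -1.13 ± 0.32 (SE, adjusted p = 0.0123 in edgeR). The second held 7.86 to 34.2 CPM (median 14.2) and 5.33 to 14.3 CPM (median 7.33), a log2 difference of -1.06 ± 0.29 (SE, adjusted p = 0.00818 in edgeR). Both overlapped between the days, and both calls were lost without tree 2B or without tree 3A. That of psme_t020377 was also lost without the 14:00 library of tree 3B on day 1. None of these 4 transcripts passed without the replicate block.

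In CPM the 14:00 library of tree 3B on day 1 was the lowest of the 12 libraries of 14:00 for 39 of the 129 transcripts, and with trimmed-mean (TMM) scaling, which the tests use, for 22. Its TMM factor was 0.797. Without it 33 transcripts passed at 14:00, against 9.84% of all, 25 of them higher and 8 lower on day 2.

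Over the other 5 clock times together, 67 of the 129 differed between the days, against 27.7% of all transcripts. Of these, 52 were higher on day 2 (12.5% of all) and 15 lower (15.2% of all). Without the replicate block 31 passed, against 9.19% of all. The difference between the days at 14:00 and that over the other clock times was itself tested. It passed in 2 of the 129, against 0.0682% of all. Both differences were larger at 14:00 (0.0379% of all, with 0.0303% in the other direction). An unadjusted p under 0.05 in edgeR was found in 35, against 7.71% of all. In psme_t014295 the 14:00 libraries held 22.2 to 38.9 CPM on day 1 (median 27.8) and 46.0 to 79.9 CPM on day 2 (median 62.6), without overlap. Its log2 difference was 0.96 ± 0.15 at 14:00 and 0.15 ± 0.07 over the other clock times, and these differed by 0.82 ± 0.16 (SE, adjusted p = 0.0203 in edgeR). In psme_t024074 the 14:00 libraries held 19.6 to 33.5 CPM (median 27.4) and 30.5 to 57.8 CPM (median 47.7), and the corresponding difference was 0.58 ± 0.12 (SE, adjusted p = 0.0203 in edgeR). Neither passed without tree 1B, 2A, 2B or 3A, without the 14:00 library of tree 3B on day 1, or without the replicate block.

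**Figure D4:**
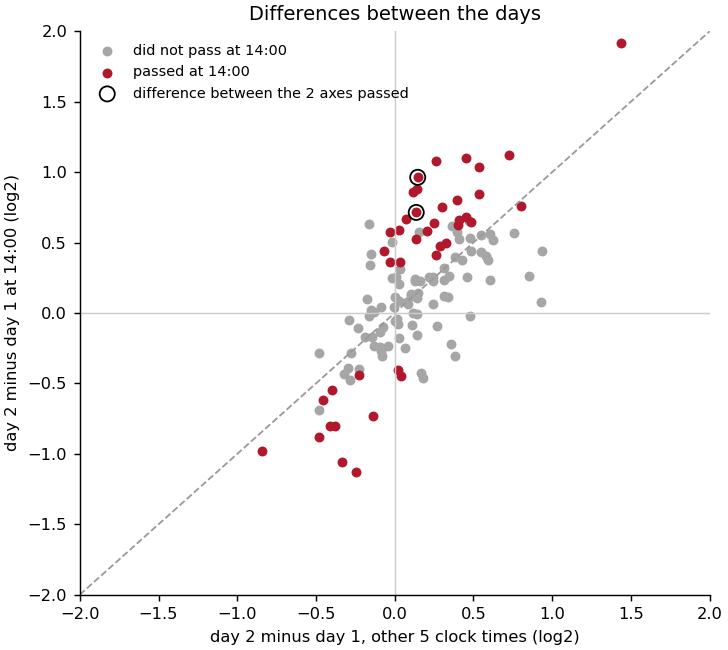
Log2 difference between the days (day 2 minus day 1) over the other 5 clock times (x axis) and at 14:00 (y axis) for the 129 transcripts. Red points passed at 14:00 (41), circles mark the 2 in which the 2 differences differed from each other, and the dashed line marks equal differences; most points lie near it.

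The days were also compared at 18:00, a comparison added after the values had been seen. Hour 40 minus hour 16 passed in 46 of the 129 transcripts, against 3.48% of all. It was higher on day 2 in 43, against 1.93% of all, and lower in 3, against 1.54% of all. Without tree as a replicate block 9 passed, against 0.288% of all. The median log2 difference was 0.30, against -0.02 over all transcripts. In CPM, 70 of the 129 were higher at 18:00 on day 2 in 6 of 6 trees, against 19.7% of the transcripts within the level limits; the trees share each collection. In 12 every 18:00 library of day 2 lay above every one of day 1, against 1.36% of the transcripts within the level limits. With the fit on the last 8 collections alone 57 passed, against 7.12% of all transcripts in that fit.

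The calls at 18:00, where 1.93% of all were higher on day 2 and 1.54% lower, were divided by daily range. Among the 27 whose 14:00 mean was at least 10 times the lowest clock-time mean (a split made after the values were seen), 24 were higher at 18:00 on day 2 and none lower, with a median log2 difference of 1.22. All 27 were among the 70 that were higher in 6 of 6 trees. The exceptions that did not pass were psme_t024687, psme_t020241 and psme_t098657, at log2 differences of 0.58, 0.52 and 0.33. Among the other 102 transcripts 19 were higher and 3 lower, with a median of 0.14. At 14:00, where 6.31% of all were higher on day 2 and 6.75% lower, 6 of the 27 were higher and none lower. The median log2 difference of the 27 was 0.52. Of the other 102, 23 were higher at 14:00 and 12 lower, with a median of 0.09.

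For psme_t029522 the 18:00 libraries held 16.5 to 95.2 CPM on day 1 (median 49.98) and 68.4 to 231.5 CPM on day 2 (median 168.1), a log2 difference of 1.62 ± 0.23 (SE, adjusted p = 6.28e-06 in edgeR). For psme_t020574 they held 2.63 to 4.96 CPM on day 1 (median 3.17) and 6.25 to 13.5 CPM on day 2, which did not overlap, a log2 difference of 1.57 ± 0.27 (SE, adjusted p = 0.000163 in edgeR). The 18:00 mean of the 27 was a median of 17.3% of their 14:00 mean on day 1 and 33.1% on day 2. For the other 102 the medians were 56.0% and 59.9%. The change in the step from 14:00 to 18:00 between the days was tested as well. In edgeR it passed in 0 of the 129, against 0.0322% of all. There 34 had an unadjusted p under 0.05, against 7.67% of all, and no other tool was run on this step.

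The 3 transcripts that were lower at 18:00 on day 2 were psme_t011331, psme_t011638 and psme_t050029, at log2 differences of -0.71 ± 0.14, -0.68 ± 0.14 and -1.22 ± 0.28 (SE). The first pair had nearly proportional counts in the 70 libraries, with a ratio of 0.775 to 0.984. Whether the pair shares reads was not tested, and each is counted as a transcript of its own in all counts given here.

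The other clock times were tested in the same fit. At 2:00 18 of the 129 passed, against 6.04% of all, 15 of them higher on day 2 (3.42% of all) and 3 lower (2.63%). At 6:00 21 passed, against 13.5%, 8 of them higher (5.16%) and 13 lower (8.38%). At 10:00 51 passed, against 18.2%, 33 of them higher (9.76%) and 18 lower (8.48%). At 22:00 10 passed, against 1.68%, 9 of them higher (0.812%) and 1 lower (0.865%). The step from 10:00 to 14:00 differed between the days in 4, against 0.187%: it was larger on day 2 in psme_t025428 and psme_t007768 (0.0549% of all) and smaller in psme_t011331 and psme_t011638, the pair with nearly proportional counts (0.133% of all) (named after their values were seen).

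Transcripts with a sharp peak at 10:00 (78) or at 18:00 (17), found by the same rule moved to those hours, were set beside the group. At 18:00 on day 2, where 1.93% of all transcripts were higher and 1.54% lower, 2 of the 78 were higher and 3 lower, and 2 of the 17 were higher and 0 lower. At 10:00, where 9.76% of all were higher and 8.48% lower, 37 of the 78 were higher on day 2 and 2 lower, 4 of the 17 were higher and 1 lower, and 33 of the 129 were higher and 18 lower. At 14:00, where 6.31% of all were higher and 6.75% lower, 13 of the 78 were higher and 4 lower, 4 of the 17 were higher and 2 lower, and 29 of the 129 were higher and 12 lower. The differences between the groups were not tested. The ratio of peak to lowest clock-time mean reached 10 in 27 of the 129 (20.9%), in 10 of the 78 (12.8%) and in 0 of the 17.

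Trees differed in the level of nearly all of these transcripts, as of nearly all transcripts. Levels differed between the 6 trees in 124 of the 129, against 92.5% of all. The 5 that did not pass were psme_t014295, psme_t044649, psme_t022953, psme_t004102 and psme_t013342 (named after their values were seen). The highest tree mean was at least 2 times the lowest in 71 transcripts, at least 4 times in 22 and at least 10 times in psme_t057905 and psme_t093515. In CPM tree 1B was the highest for 39 transcripts, and tree 3B was the lowest for 48. The TMM factors of the tested libraries were 1.01 to 1.16 in tree 1B and 0.744 to 1.10 in tree 3B. These 2 counts are not given with TMM scaling, which the tests use, and could differ under it.

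The 3 smallest p-values between trees came from 3 different patterns. In psme_t093515 the tree means were 1.63 CPM in tree 3B and 2.91 CPM in tree 3A, and 15.5 to 31.2 CPM in the other 4 trees (adjusted p = 1.36e-31 in edgeR). Both trees of family 3 were thus low. In psme_t021749 tree 3A alone was low, at 11.1 CPM against 43.1 to 52.4 CPM in the other 5 trees (adjusted p = 6.84e-30 in edgeR). In psme_t026880 the means ran from 13.7 CPM in tree 3B to 78.8 CPM in tree 2B (adjusted p = 3.79e-26 in edgeR).

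The height of the peak was compared between trees as well. As the log2 difference between 14:00 and the mean of the other 5 clock times, the median height over the 129 was 1.39 in tree 1B to 1.55 in tree 1A. It was above 0 in 6 of 6 trees for 127 transcripts, and the exceptions were psme_t018044 (-0.22 in tree 2A) and psme_t050029 (-0.21 in tree 1B and -0.20 in tree 2B). An unadjusted p under 0.05 in edgeR was found in 21 of the 129, against 3.58% of all. The height differed between trees at the adjusted threshold in 1, against 0.0151% of all. In that transcript, psme_t025428, the height was 0.88 ± 0.18 in tree 2B and 2.49 ± 0.17 in tree 1A (log2, SE, adjusted p = 0.0339 in edgeR). Its call was lost without any of trees 1A, 1B, 2A, 2B and 3A, without the 14:00 library of tree 3B on day 1 and with all 72 libraries, and was kept without tree 3B.

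Next in order of p were psme_t026880, with heights of 0.89 ± 0.18 in tree 2B and 2.46 ± 0.17 in tree 1A (log2, SE, adjusted p = 0.0730 in edgeR), and psme_t056561, with 1.94 ± 0.23 in tree 1B and 3.46 ± 0.21 in tree 1A (log2, SE, adjusted p = 0.668 in edgeR). Counts of psme_t025428 and psme_t026880 kept a ratio of 0.808 to 1.73 over the 70 libraries, and whether the 2 share reads was not tested.

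**Figure D5:**
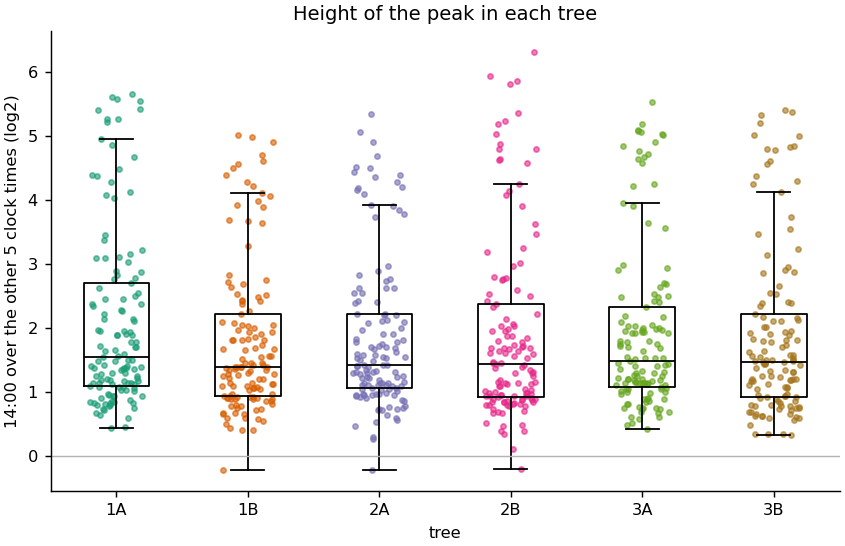
Height of the 14:00 peak in each tree, as the fitted log2 difference between 14:00 and the mean of the other 5 clock times, with 1 point per transcript (129 per tree) and boxes for the median and quartiles; whiskers reach the farthest point within the usual span of the box. The medians lie between 1.39 and 1.55 in all 6 trees, and the highest points exceed 5 in every tree.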

How the data were processed

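RNA-seq libraries of polyA RNA, strand-specific by dUTP per the labels' protocols, were made from needles of 6 trees at 12 collections. The authors deposited whole-number counts per transcript, and the submitters' processing notes name CASAVA 1.8 and Bowtie2 2.2.3; the reference transcriptome and the treatment of reads with several matches are not given in the sources used here. The other deposited table gives a normalized signal, that is counts divided by a size factor per library (0.4495 to 2.401), attributed to DESeq in the notes; it was used for 1 alternative. All 129 transcripts are in it, and of the 247 transcripts listed only there 0 met the rule. Samples were grouped by title.

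The members, the comparisons and the rule for named transcripts were chosen with earlier results of these data known. Named were the largest and smallest shares at 14:00, the highest levels, the nearest misses, the largest changes or smallest p in each test and the extreme ratios of 10:00 to 18:00. Tests used the counts of 70 libraries in edgeR 4.0.16 (R 4.3.3): filterByExpr (minimum count 10, total 15), TMM scaling, trended dispersion, quasi-likelihood F tests on 12 collections with tree as a replicate block, since same-named libraries come from the same tree. Benjamini-Hochberg adjustment ran over all 52820 transcripts tested, 129 members included, at 0.05. Held-out tests used clock time with day (trees) or tree (days). Alternatives were RLE scaling, DESeq2 1.42.0, no filter, 72 libraries, no block, a threshold of 0.01 and each tree left out; added later were the 18:00 comparison and the omission of 1 library. The tests were tried on simulated counts. No 2 libraries were identical (0 pairs). Depth limits counting error only.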

Additional observations from a re-analysis of the deposited data

Results flagged for a closer look

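Among the 6 libraries of one collection, a single library stood far from the rest in 5 of 68 groups of values examined. A rate of 1 in 20 would give about 3.4, but the groups share libraries and trees differed in level, so no conclusion is drawn. The summed level of the 129 transcripts at 22:00 on day 2 was 3957 CPM in tree 2A and 2960 to 3304 CPM in the other trees. At 14:00 on day 1 tree 1A held 120.8 CPM of psme_t055151, against 26.0 to 56.7 CPM in the other trees, and 155.2 CPM of psme_t038959, against 39.2 to 76.5 CPM. At 14:00 on day 2 tree 3B held 13.6 CPM of psme_t050029, against 0.850 to 5.32 CPM, and tree 3A held 35.3 CPM of psme_t021749, against 113.8 to 138.3 CPM. Tree 3A was also the lowest for psme_t021749 at 14:00 on day 1.

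By tests of a difference between effects, the day difference at 14:00 departed from that over the other clock times in 2 transcripts, psme_t014295 and psme_t024074. The height of the 14:00 peak differed between trees in 1 transcript, psme_t025428.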

How the results depend on the processing

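With another scaling (TMM or the authors' table) the rule chose 143 and 142 transcripts, 126 and 125 of them among the 129; a 2-fold limit chose 39, a mean of at least 10 CPM chose 81, and leaving out a tree chose 125 to 150. At 14:00 the day difference passed in 24 at an adjusted p under 0.01 and in 11 without the replicate block (2.26% of all). With a tree left out it passed in 25 (9.38% of all, without tree 3A) to 50 (13.1% of all, without tree 1A). Over the other clock times 31 passed without the block (9.19% of all). With a tree left out 51 (18.3% of all, without tree 2B) to 64 (29.2% of all, without tree 2A) did. At 18:00 9 passed without the block (0.288% of all). With a tree left out 34 (1.04% of all, without tree 1B) to 44 (2.31% of all, without tree 1A) did. The difference of the 2 day differences passed in 0 at 0.01 and in 5 by DESeq2. DESeq2 called 0.390% of all transcripts there, against 0.0682% in the main fit. Without a filter 1 passed (0.00978% of all), and without the block 0 did. With a tree left out 0 to 3 passed (3 without tree 1A, with 0.0917% of all). Without the 14:00 library of tree 3B on day 1 0 passed. The tree difference in height passed in 0 at 0.01, in 2 by DESeq2 (0.0530% of all) and in 2 without a filter (0.0178% of all). The main fit called 0.0151% of all. It passed in 0 with all 72 libraries, in 0 in the last 8 collections and in 0 without that library. With a tree left out 0 to 2 passed (2 without tree 3B, with 0.0113% of all). Without the filter the held-out trees gave 65, 45, 74, 49, 66 and 35 (trees 1A to 3B in order), and on held-out day 2 37 passed without the replicate block. No share over all transcripts is given here for these held-out counts or for the threshold of 0.01. The cause was not tested, except that a limit raised or a threshold lowered leaves fewer by construction. Under 75 other settings these counts stayed within 1.5 times the reported count, and no called value of a named transcript changed sign under any alternative run. Trees share each collection, and with 2 days a difference between days cannot be told apart from one between single collections.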

Other observations

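Pairs of the 129 transcripts were compared by the SD of the log2 ratio of their counts, over the 108 transcripts with at least 10 counts in each of 70 libraries. The median over 5778 pairs was 0.978. The steadiest pair was psme_t011331 and psme_t011638, at an SD of 0.061 and a median ratio of 0.891, followed by psme_t008294 and psme_t008896 at 0.175 and psme_t004102 and psme_t013342 at 0.196. These values describe the same libraries that chose the transcripts, and whether the pairs are copies of one gene was not tested. The limit on counts left out transcripts that were close to silent off the peak, such as psme_t020574. Whether those share reads or are copies of one another was therefore not tested either.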
